A study of Arabidopsis thaliana with 6 samples.

Results

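TCP transcription factors are a plant family named after its founding members TEOSINTE BRANCHED 1, CYCLOIDEA and the PCF proteins, and share a basic helix-loop-helix DNA-binding region, the TCP domain. Described here are 10 TCP genes known for roles in leaf growth and ageing, out of 27655 gene loci in the tables. They were taken by locus identifier: 5 of class II (TCP2, AT4G18390; TCP3, AT1G53230; TCP4, AT3G15030; TCP10, AT2G31070; TCP24, AT1G30210) and 5 of class I (TCP9, AT2G45680; TCP14, AT3G47620; TCP15, AT1G69690; TCP19, AT5G51910; TCP20, AT3G27010). They were chosen by locus with the log2 ratios of these same libraries already known, so their values are a description and carry no test.

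The tested material was leaf RNA of jmj16, the insertion allele jmj16-1 (SAIL_535_F09) in the Col-0 background, set against leaf RNA of wild type Col-0, with 1 RNA-seq library of each genotype. JMJ16 is a demethylase of lysine 4 of histone H3, which the series title ties to the repression of leaf senescence. In both groups the plants spent 6 days on plates and were then moved to soil in a 22 °C room lit for 16 h and dark for 8 h a day, and leaves 5 and 6 were taken when fully expanded and not yet yellow. Plant age stands as 4 weeks in one label field and as 5 weeks in another. The number of plants behind each library is not given in the sources used here, and jmj16 is represented by a single allele. The 4 chromatin immunoprecipitation samples of the series were not analysed here.

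The class II genes described belong to the CINCINNATA (CIN) clade, whose products slow cell division and promote differentiation as a leaf matures. The messages of all of them are cleaved under the guidance of the microRNA miR319. Class II factors of this clade also activate LOX2, which encodes a chloroplast lipoxygenase of jasmonate synthesis, and leaves in which miR319 is overproduced age late. Class I factors are mostly described as promoters of cell division and growth, and TCP9 and TCP20 have been reported to act on LOX2 in the opposite sense to the class II factors. TCP19 and TCP20 have been reported to act redundantly in leaf senescence.

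The jmj16 library held 13844284 estimated counts and the wild type library 10643186. Of 17151 genes measured, meaning at least 20 reads over both libraries, 1239 were higher in jmj16 (7.22%) and 1825 were lower (10.6%) by the rule used throughout: at least 2-fold, with a 95% counting interval of the ratio that excludes 1. Higher genes made up 40.4% of those called with scaled counts and 55.7% with log2(TPM + 1), where TPM is a transcript abundance scaled to transcript length and to the library's own total. With 1 library per genotype no difference has a replicate check, every interval covers counting error only, and no p-value is given. The targeted gene JMJ16 (AT1G08620) had 168 reads in jmj16 and 188 in wild type, a log2 ratio of -0.63 (-0.94 to -0.33) that became 0.37 after the length correction described further on. Reads can remain from a gene with an insertion, so this count does not check the label, and the library is called jmj16 from its label alone. The 6 mesophyll markers summed to 15672 TPM in jmj16 and 23932 in wild type and were abundant in both libraries, with 3 of 6 lower in jmj16, while 4 shoot apex markers summed to 0.0344 and 0.101 TPM. Markers of dividing cells summed to 2.003 TPM in jmj16 and 1.67 TPM in wild type. Floral and seed markers summed to 2.42 and 7.66 TPM, with 2 of 3 measured members lower. Vascular markers summed to 131 and 167 TPM, with 3 of 6 higher, all of them xylem genes. The phloem markers SUC2 and APL went the other way, at log2 ratios of -0.47 (-0.54 to -0.40) and -0.60 (-0.86 to -0.34). SUC2 alone made up 112 TPM of the vascular sum in jmj16 and 148 TPM in wild type. Of 5 epidermis and guard cell markers, 2 were lower and 3 were neither. In a sample of whole leaves, fewer cells of a type and less RNA per cell cannot be told apart. The part of these marker differences in the TCP values was not tested.

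All 10 TCP genes were measured in both libraries. Only TCP15 passed the 2-fold rule, as a higher gene in jmj16, and none was lower. That is 1 of 10 against 7.22% of all measured genes, and nothing about the group is read from it. Below the 2-fold mark the values leaned upward. Log2 ratios of jmj16 over wild type were above 0 for 9 of 10, against 51.2% of all measured genes. Counting intervals lay wholly above 0 for 8 of 10, against 30.8% of all genes (and 30.2% wholly below). The share of such intervals depends on read depth, which was not matched between the members and all genes. With the mark set at 1.5-fold, TCP3, TCP4, TCP10, TCP9 and TCP15 were higher, 5 of 10 against 16.4% of all measured genes, and none was lower, against 19.6%. The median log2 ratio of the 10 genes was 0.54, against 0.02 for all measured genes. Because the genes were chosen with these ratios known, the choice itself may set this lean. It describes the 10 genes and is no result about TCP genes as a group.

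**Figure D1:**
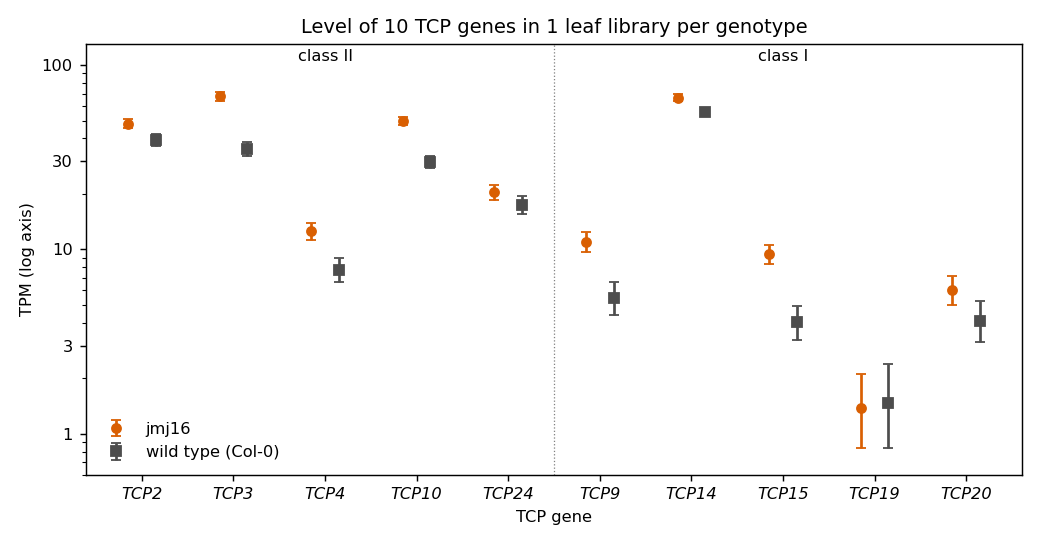
Level of each TCP gene in TPM (log axis) in the jmj16 library (orange circles, left of each pair) and the wild type library (grey squares, right); bars are 95% Poisson counting intervals scaled to TPM. TCP3 has the widest gap within class II, at 67.7 TPM in jmj16 against 35.2 in wild type, while the intervals of TCP19 overlap, at 1.38 and 1.48 TPM.

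Among the class II genes, TCP3 showed the largest difference before length correction. TCP3 activates genes that restrict leaf outgrowth, among them AS1, a MYB regulator of leaf shape. It had 1285 reads (95% Poisson interval 1216 to 1357) and 67.7 TPM in jmj16, against 499.8 reads (457 to 546) and 35.2 TPM in wild type. The jmj16 library was 1.85-fold higher (1.67 to 2.06), just under the 2-fold mark and with an interval that reaches across it.

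TCP10 and TCP4 were next. TCP10 had 1476 reads and 49.8 TPM in jmj16, against 672 reads and 29.9 TPM in wild type, a ratio of 1.58 (1.44 to 1.74). TCP4, the CIN factor best known for control of LOX2 and jasmonate, had 382 reads and 12.6 TPM in jmj16, against 181 reads and 7.76 TPM in wild type, a ratio of 1.52 (1.27 to 1.83). The log2 ratios of TCP10 and TCP4 differed by 0.06 (-0.23 to 0.34), less than counting error. Neither passed the 2-fold rule, and for both the counting interval of the ratio excluded 1.

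TCP2 and TCP24 were close to equal in the libraries. TCP2, also linked to blue light responses of the seedling, had 1120 reads and 48.0 TPM in jmj16, against 685 reads and 39.1 TPM in wild type, a ratio of 1.18 (1.07 to 1.30). TCP24, which with ABAP1 holds back cell division in leaves, had 461 reads and 20.4 TPM in jmj16, against 299 reads and 17.5 TPM in wild type. Its ratio was 1.11 (0.959 to 1.29), the only one in class II whose interval included 1. The class II genes did not share one ratio: TCP3 exceeded TCP2 by 0.65 (0.45 to 0.85) and TCP24 by 0.74 (0.48 to 0.99) in log2 ratio. Of the 10 pairs within class II, 7 differed beyond the counting interval, which says nothing of variation between plants. These differences were not corrected for transcript length, and a part of miR319 in them was not tested.

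Among the class I genes, TCP15 rose in jmj16 and TCP9 stayed just under the 2-fold mark. TCP15, which with its close relative TCP14 affects cell division in stems and leaves and responses to cytokinin, had 282 reads (250.0 to 317) and 9.44 TPM in jmj16, against 91 reads (73.3 to 112) and 4.02 TPM in wild type. It was 2.23-fold higher (1.76 to 2.86), at the 94.3rd percentile of all measured genes. TCP9 had 253 reads and 10.98 TPM in jmj16, against 95 reads and 5.45 TPM in wild type, a ratio of 1.91 (1.51 to 2.46). With libraries scaled to their total counts TCP9 passed as well, at a log2 ratio of 1.03, and no member passed in either direction when the whole interval had to lie beyond 2-fold, as it did for 2.84% of all genes above and 4.71% below.

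TCP20, which has been tied to nitrate responses and to genes of cell division, had 120 reads and 6.01 TPM in jmj16, against 62 reads and 4.10 TPM in wild type, a ratio of 1.39 (1.02 to 1.93). TCP14 had the most reads of the 10 genes, 2431 in jmj16 against 1544 in wild type, or 66.6 and 55.8 TPM. Its ratio of 1.14 (1.06 to 1.21) was small but outside counting error. TCP19 was near the limit of measurement with 20.2 reads in jmj16 and 16.1 in wild type, and its ratio of 0.896 (0.444 to 1.86) leaves room for a difference of about either sign. The partners TCP15 and TCP14 differed by 0.98 in log2 ratio (0.62 to 1.33), and TCP15 exceeded TCP20 by 0.68 (0.12 to 1.24). As in class II, these differences between genes were not corrected for transcript length.

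**Figure D2:**
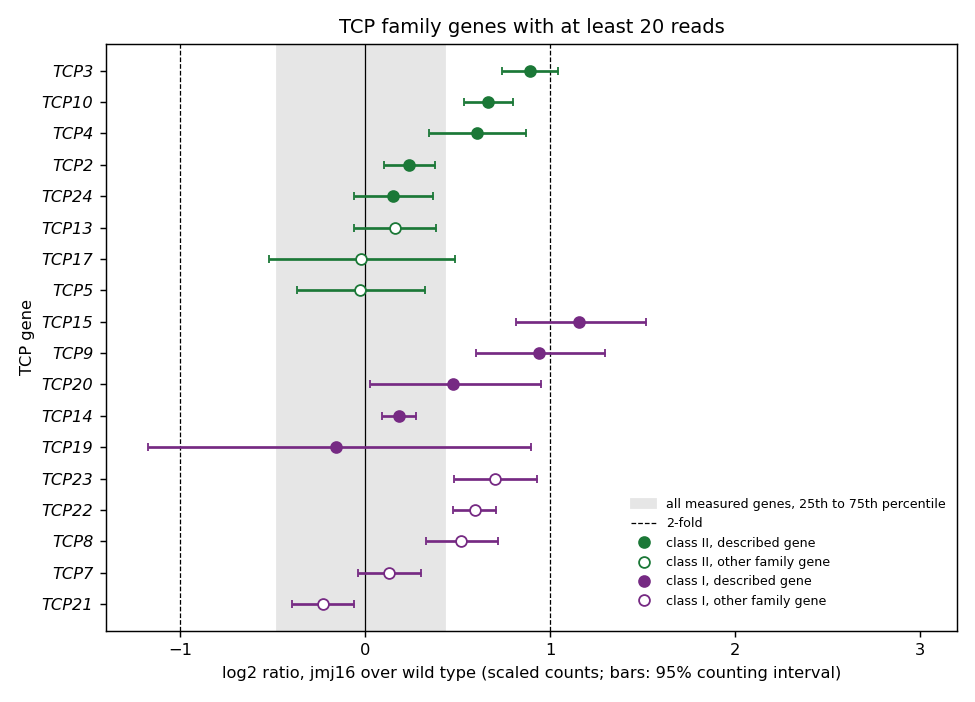
The log2 ratio of jmj16 over wild type (horizontal axis, TMM-scaled counts) for the 18 TCP family genes with at least 20 reads, class II in green and class I in purple, filled for the 10 genes described and open for other family genes; bars are 95% counting intervals, dashed lines mark 2-fold and the grey band spans the quartiles of all measured genes. TCP15 alone lies beyond the 2-fold line, at 1.15, and TCP9 and TCP3 lie just inside it at 0.94 and 0.89.

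The classes were compared as groups. The median log2 ratio was 0.60 for class II (range 0.15 to 0.89) and 0.48 for class I (-0.16 to 1.15), a gap of 0.13 that is small beside either range. The gap became -0.10 when at least 100 reads were required, since TCP19 then left class I. All 5 class II genes and 4 of 5 class I genes had log2 ratios above 0, and in each class 4 counting intervals lay above 0. The range of class II lay inside that of class I, so the classes overlapped fully.

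Summed over genes without length correction, class II again showed the larger difference, but TCP14 outweighs the rest of class I. The class II genes summed to 198 TPM in jmj16 and 129 TPM in wild type, and their summed reads were 1.46-fold higher in jmj16 (1.39 to 1.53). The class I genes summed to 94.4 TPM in jmj16 and 70.9 TPM in wild type, 1.24-fold higher in summed reads (1.17 to 1.31). Without TCP14 the remaining 4 class I genes summed to 27.8 TPM in jmj16 and 15.05 TPM in wild type, a ratio of 1.84 in reads (1.60 to 2.13). Without length correction, which class shows the larger summed difference thus depends on whether TCP14 is counted. The order of the classes may also change with that correction, which moved the log2 ratio of TCP14 from 0.18 to 0.50. Length-corrected sums were not made.

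The make-up of each class also differed between the libraries. TCP14 held 70.5% of the class I TPM in jmj16 and 78.8% in wild type, and TCP15 held 10.004% and 5.68%. In class II, TCP3 held 34.1% of the TPM in jmj16 and 27.2% in wild type, while TCP2 held 24.2% and 30.2%. TCP4 stayed a minor part of class II in both, with 6.32% in jmj16 and 6.00% in wild type. The length trend described further on, which bears most on TCP14, was not removed from these shares.

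**Figure D3:**
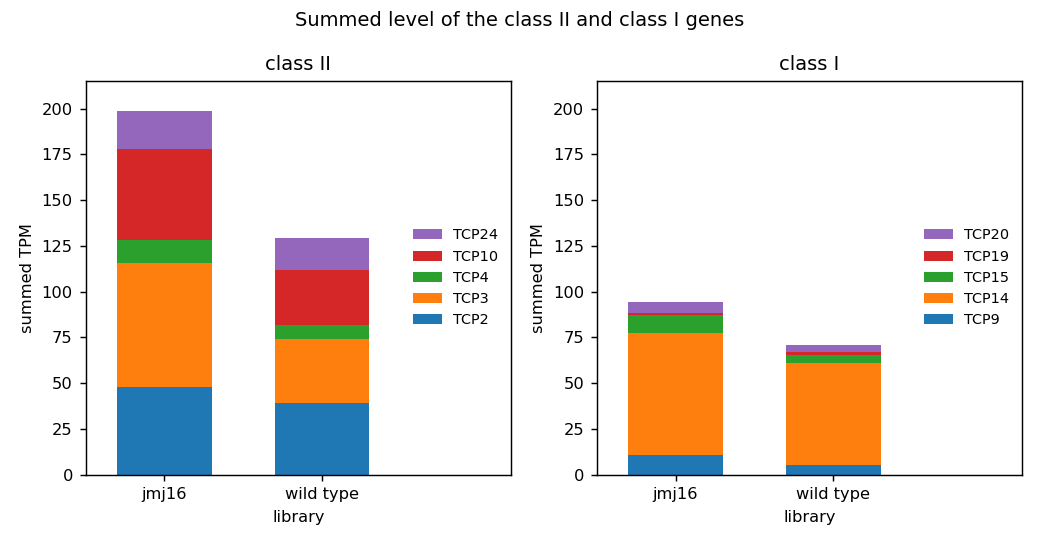
Summed TPM (vertical axis, from 0) of the 5 class II genes (left panel) and the 5 class I genes (right panel) in the jmj16 and wild type libraries, split by gene. The class II bar reaches 198 TPM in jmj16 and 129 TPM in wild type, and TCP14 fills most of both class I bars.

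In order of TPM, the jmj16 library ran TCP3, TCP14, TCP10, TCP2, TCP24, TCP4, TCP9, TCP15, TCP20 and TCP19. Neighbours whose counting intervals overlapped there were TCP3 and TCP14, TCP10 and TCP2, TCP4 and TCP9, and TCP9 and TCP15. The wild type library ran TCP14, TCP2, TCP3, TCP10, TCP24, TCP4, TCP9, TCP20, TCP15 and TCP19. There, TCP2 and TCP3, TCP3 and TCP10, TCP9 and TCP20, and TCP20 and TCP15 overlapped. The abundant genes were well above the middle of the leaf transcriptome, with TCP14 at the 87.9th percentile of measured genes in jmj16 and the 88.0th in wild type, whereas TCP19 lay at the 13.6th and 13.3rd.

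Across all measured genes the log2 ratio declined as transcript length grew (Spearman rho -0.43 over 17151 genes, which are not independent). The 10 TCP genes, taken at their most read transcript model, ranged from 1125 to 2467 nt. In the length decile of TCP15 (2063 to 2388 nt) the median log2 ratio was -0.17 and 4.09% of genes were higher. In that of TCP14 (2389 to 2990 nt) the median was -0.39. TCP genes other than TCP19 (9 of 10) lay above the median of their own length decile.

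After subtraction of the length trend, TCP15 had a log2 ratio of 1.26 (0.92 to 1.62), still the one member past 2-fold, against 6.23% of all measured genes called higher on this scale and 6.69% lower. As before, 9 of 10 members lay above 0, against 50.9% of all genes. TCP14 moved most, to 0.50 (0.41 to 0.60) from 0.18 before subtraction. TCP3, taken at its model of 1176 nt, moved down to 0.65 from 0.89. That model held 53.3% of TCP3 reads in jmj16 and the model of 1844 nt 46.7%, so the corrected value depends on the model chosen. TCP9, TCP10 and TCP4 stood at 0.86, 0.76 and 0.74, so TCP3 no longer had the largest class II ratio. TCP2 at 0.13 (-0.01 to 0.27), TCP24 at 0.05 (-0.16 to 0.26) and TCP20 at 0.34 (-0.11 to 0.81) then had intervals that included 0. The class medians were 0.65 for class II and 0.50 for class I.

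**Figure D4:**
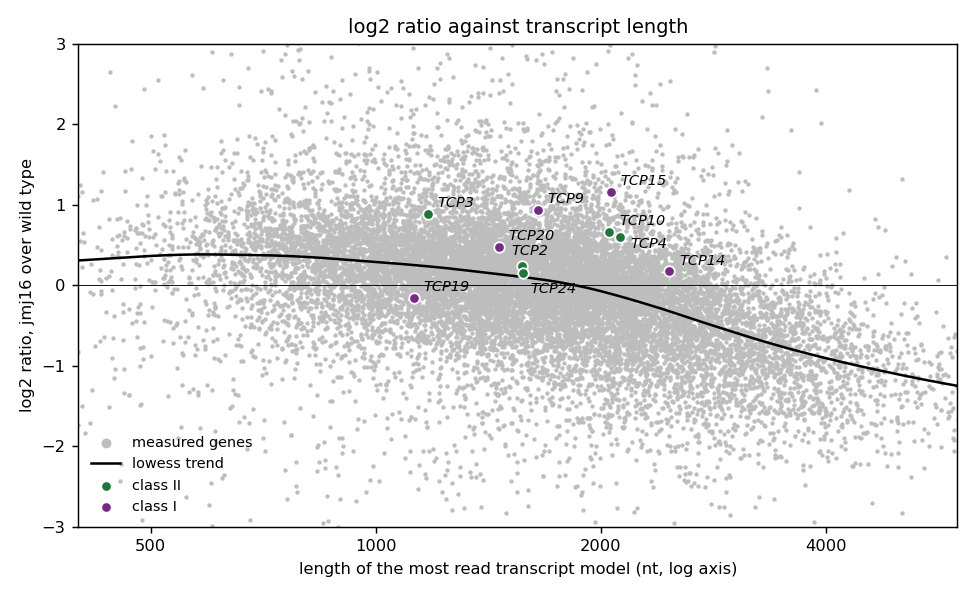
The log2 ratio of jmj16 over wild type (vertical axis) against the length in nt of the most read transcript model (horizontal log axis) for measured genes (grey), with the lowess trend (black line) and the 10 TCP genes in green (class II) and purple (class I); genes beyond the axes are not drawn. TCP19 lies below the line, TCP24 and TCP2 close to it, and TCP15 farthest above it.

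Reads were also divided among transcript models. TCP9, TCP10, TCP14 and TCP15 have 1 model each, so their values need no division between isoforms. TCP3 reads went 46.7% to AT1G53230.1 in jmj16 (43.9% to 49.4%, exact binomial) and 44.4% in wild type (40.0% to 48.9%), so both models were higher in jmj16, with log2 ratios of 0.96 and 0.83. For TCP2 the longer AT4G18390.1 took 34.1% of reads in jmj16 and 30.8% in wild type, and for TCP24 AT1G30210.1 took 41.0% in each. These splits agree within their intervals, while the gene totals differ between TCP3 on one side and TCP2 and TCP24 on the other.

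TCP4 and TCP19 were the exceptions. Of the 4 models of TCP4, AT3G15030.2 took 58.0% of reads in jmj16 and 53.0% in wild type, and AT3G15030.3 took 37.0% and 28.2%. AT3G15030.4 was listed at 0 reads in jmj16 and at 22.2 in wild type, or 0% of TCP4 reads in jmj16 (upper limit 0.961%, exact binomial) and 12.3% in wild type (7.78% to 17.8%). For TCP19, AT5G51910.1 had 7.57 reads in jmj16 and 0 in wild type, and AT5G51910.2 had 12.6 and 16.1. Models of one gene overlap over most of their length, so the division of so few reads is an estimate by the authors' software and its intervals understate the error. From the most read model alone, the log2 ratio of TCP4 was 0.73 and that of TCP19 was -0.76, in place of 0.60 and -0.16.

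The other TCP family genes were set beside these. Of 12 further loci that the reference names as TCP genes, 8 were measured and none passed the rule. Of the 5 measured class I genes among them, 4 had log2 ratios above 0, with a median of 0.52. TCP22, which has been linked with TCP20 to the clock gene CCA1, had 1817 reads and 75.1 TPM in jmj16, against 870 reads and 47.5 TPM in wild type, a ratio of 1.51 (1.39 to 1.63). TCP7 was at 1.095 (0.974 to 1.23). Also TCP23 was at 1.63 (1.397 to 1.91) and TCP8, a regulator of the salicylic acid gene ICS1, at 1.43 (1.25 to 1.64). TCP21 (CHE), a repressor of CCA1, was the one family gene with an interval wholly below 0, at a log2 ratio of -0.23 (-0.40 to -0.06).

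The 3 measured class II genes outside the group, all CIN genes without a miR319 site, lay near equality. TCP13 had 423 reads in jmj16 and 273 in wild type (log2 ratio 0.16, -0.06 to 0.39), TCP5 had 169 and 124 (-0.03, -0.37 to 0.32), and also TCP17 had 82 and 60 (-0.02, -0.52 to 0.48). Their median of -0.02 compares with 0.60 for the 5 miR319-regulated genes, of which TCP2 and TCP24 lay in the same range as TCP13. A part of miR319 in this difference was not tested. TCP18 (BRC1) and TCP12, which hold back axillary buds, and their relative TCP1 had at most 10 reads in either library. Over the 18 measured family genes, 14 had log2 ratios above 0 and the median was 0.36.

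Genes reported to act with or under TCP factors were counted next. Of 16 measured partners and co-regulators, 3 were lower (all genes 10.6%), none was higher and 13 were neither, with a median log2 ratio of -0.34. The lower ones were BRM, a chromatin-remodelling ATPase that works with TCP4 (145 reads in jmj16, 289 in wild type, 2.76-fold lower, 2.26 to 3.40), NLP7, a nitrate-response factor (386 and 618, 2.22-fold lower, 1.95 to 2.53), and SRFR1, an immunity repressor that binds TCP factors (244 and 382, 2.17-fold lower, 1.84 to 2.56). Their transcripts are long, from 3483 to 6731 nt, and none of them passed after the length trend was subtracted, when the list median was 0.18. The co-repressor gene TPL had 766 reads in jmj16 and 688 in wild type, with a log2 ratio of -0.32 (-0.47 to -0.17) that became 0.56 after length correction, so its direction is not settled.

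Of 5 measured genes among the reported targets of CIN factors, 1 was lower (LOX2, against 10.6% of all genes) and 4 were neither. The list median log2 ratio was 0.05, and it was -0.18 after length correction. LOX2 had 3027 reads and 66.7 TPM in jmj16, against 5129 reads and 149 TPM in wild type, 2.35-fold lower (2.25 to 2.46), and its log2 ratio of -1.23 became -0.66 after length correction, which no longer passed. Also AS1 had 335 reads and 12.2 TPM in jmj16, against 141 reads and 6.77 TPM in wild type, a ratio of 1.71 (1.403 to 2.101) that did not pass. In the other direction, also IAA3 had 99.5 reads in jmj16 and 99.1 in wild type, a ratio of 0.721 (0.540 to 0.963) that did not pass. ICK1, an inhibitor of cyclin-dependent kinases, had 585 and 406 reads, a ratio of 1.04 (0.914 to 1.18). The organ boundary genes CUC2 and CUC3 were listed at 0 in both libraries, and CUC1 had 1 read in jmj16 and 0 in wild type.

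The rest of the jasmonate synthesis pathway was mixed. With LOX2 counted again, of 13 measured jasmonate synthesis genes 1 was higher (all genes 7.22%), 2 were lower (all genes 10.6%) and 10 were neither, with a median of 0.10 that became 0.39 after length correction. AOC3, an allene oxide cyclase, had 42.1 reads in jmj16 and 11.5 in wild type (2.45-fold higher, 1.30 to 5.27), and the lipoxygenase gene LOX6 had 118 and 205 (2.40-fold lower, 1.91 to 3.05), which did not pass after length correction. Other genes of the later steps did not pass. Also AOC2, the most read of them, was at a ratio of 1.07 (1.03 to 1.11), which became 0.934 after length correction, AOC1 was at 1.73 (1.64 to 1.82), AOS at 1.46 (1.397 to 1.53) and OPR3 at 1.86 (1.70 to 2.04). Close AOC copies share reads, which makes their values uncertain.

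Growth-regulating factors (GRF) promote cell division in young leaves with their GIF co-activators, and TCP4 restrains them through miR396. Of 9 measured GRF and GIF genes, 1 was lower (all genes 10.6%) and 8 were neither, with a median of -0.03. That gene was GRF5, with 2.02 reads in jmj16 and 22.1 in wild type, 12.5-fold lower on very few reads (3.75 to 134). The most read were GIF2 (768 reads in jmj16 and 461 in wild type, ratio 1.20, 1.07 to 1.35) and GRF3 (264 and 162, ratio 1.17, 0.963 to 1.44). GRF6 and GRF9 were listed at 0 in both libraries.

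Of 10 measured genes among the reported targets of class I factors, 1 was higher (all genes 7.22%), 2 were lower (all genes 10.6%) and 7 were neither. The median log2 ratio was -0.55, and it was -0.33 after length correction and -0.04 over members with at least 100 reads. NRT1.1, a nitrate transporter and sensor whose promoter TCP20 is reported to bind, had 2445 reads and 76.0 TPM in jmj16, against 556 reads and 22.8 TPM in wild type, 3.17-fold higher (2.89 to 3.48). PRE1, a growth-promoting helix-loop-helix gene, had 14 reads in jmj16 and 50 in wild type and was 4.83-fold lower (2.70 to 9.70). After length correction also NIA1, a nitrate reductase gene, passed as higher, at a log2 ratio of 1.52 in place of 0.88. PRE6 then passed as lower, at -1.06 (-1.51 to -0.62) in place of -0.78. The other gene lower before correction was LOX2, given above, which no longer passed. That left 2 higher and 2 lower after correction. Not all nitrate genes leaned upward: NRT2.1, a nitrate transporter gene, had a log2 ratio of -0.79 (-1.56 to -0.03) and did not pass. Of the cell-cycle targets, also RBR1 had 151 reads in jmj16 and 135 in wild type (ratio 0.806, 0.635 to 1.03) and PCNA2 had 69.9 and 42.9 (1.17, 0.792 to 1.76), and neither passed. CYCB1;1 had 3 reads in jmj16 and 4 in wild type, and CYCA2;3 had 1 and 0. PRE5, a relative of PRE1, was listed at 0 in both. Named above with family genes, also CCA1 had a log2 ratio of -0.86 (-1.18 to -0.55) and ICS1 one of 0.38 (0.06 to 0.71). Neither passed, and a part of TCP genes in these values was not tested.

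**Figure D5:**
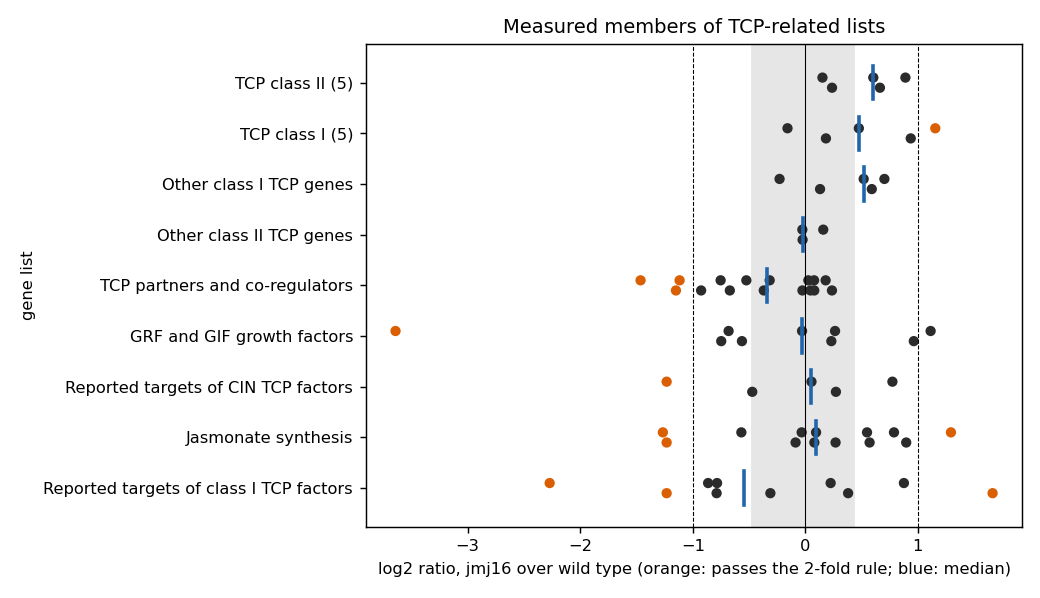
The log2 ratio of jmj16 over wild type (horizontal axis) for the measured genes of each list (rows), with genes that passed the 2-fold rule in orange, list medians as blue bars, 2-fold as dashed lines and the quartiles of all measured genes as a grey band. Both TCP classes have medians right of the grey band, at 0.60 and 0.48, as do the other class I genes at 0.52, and the partner list has its median at -0.34.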

How the data were processed

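RNA-seq of 1 jmj16 and 1 wild type leaf library was used. The authors deposited, per the file headers, a Salmon table for each library with an estimated count and a TPM for 48359 transcript models. Salmon, TopHat2, Bowtie2, SAMtools, deepTools and the build TAIR10 are named without roles per the submitters' processing notes. Versions, annotation release, read layout and strandedness were not given in the sources at hand, so near-identical paralogs share reads and overlapping genes cannot be told apart. 

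Counts and TPM were summed per locus and counts rounded to whole numbers. Libraries were scaled with TMM factors of 1.03 (jmj16) and 0.969 (wild type) from edgeR 4.0.16 in R 4.3.3, used for scaling only. The log2 ratio was taken after adding 0.5 to each count. Intervals at 95% are exact Clopper-Pearson for ratios and shares, Poisson for counts, and a normal approximation on the log odds ratio for differences between genes. They cover counting error only, since reads are not independent molecules. The length trend was a lowess (span 0.3, statsmodels 0.14.6) over the log2 length of the most read model. The steps were tested on simulated data.

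The members and the lists were chosen with earlier results of these data known. Names came from RefSeq (assembly TAIR10.1), where 27445 loci and all 10 members were found. JMJ16 was taken as AT1G08620 from general knowledge. Of 122 list names 113 were used: 6 microRNA genes, TCP6, DAR1 and TCP11 were not analysed here. TCP11 was not taken as a gene of its own, because the reference gives that name to the TCP21 locus. Besides the 10 members and JMJ16, the rule named for each list up to 4 passing genes, largest difference first, or, where fewer than 2 passed, the 2 with most reads, and genes at 0 in both libraries. Other genes given values, among them those introduced with "also", were chosen after their values were seen. Alternatives were scaling by median-of-ratios (DESeq2 1.42.0), by upper quartiles or by total counts, ratios of log2(TPM + 1), 5 in place of 0.5 as the added count, the most read transcript alone, no minimum or one of 100 reads, folds of 1.5 and 4, an interval wholly beyond 2-fold, and length correction.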

Additional observations from a re-analysis of the deposited data

How the results depend on the processing

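No paired analysis was possible because each genotype has 1 library, and for the same reason no library could be left out. The count of 1 higher TCP gene was 1 under 8 of 12 alternatives, and the number of lower TCP genes was 0 under all 12. With total-count scaling 2 were higher, both class I. With a 1.5-fold rule 5 were higher, 3 in class II and 2 in class I, with 2821 genes higher and 3355 lower overall. With a 4-fold rule 0 TCP genes were higher (255 genes higher and 292 lower overall), and with an interval wholly beyond 2-fold also 0 (487 and 807). Over all genes, log2(TPM + 1) gave 747 lower, length correction 1148 lower, and a minimum of 100 reads 747 higher and 1199 lower, where fewer genes are tested. The class II median ranged from 0.59 to 0.70 and the class I median from 0.43 to 0.71 over 9 alternatives, and the class gap from -0.10 to 0.18. Depth limits TCP19 most, then TCP20, TCP15 and TCP9.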
